A study of Schizosaccharomyces pombe with 5 samples.

Results

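The Msa1-TAP peak list holds 140 regions of the fission yeast genome in which RNA was recovered with the TAP-tagged protein Msa1 at a higher level than in untagged cells, and all 140 were described here, out of 268 peaks in the lists used from the series. Cells of both groups were homothallic (h90) Schizosaccharomyces pombe, grown on rich YES medium, at 30 °C by the labels, and starved of nitrogen on ME medium to induce meiosis. The label of each library gives 4 h of starvation, while the growth protocol names several harvest times and the study's methods give other temperatures and a range of hours. In Msa1-TAP cells the chromosomal msa1 gene carried a TAP tag at its C-terminus, and the untagged cells carried no tag. The list was called from 1 Msa1-TAP library against the 1 untagged library, so no value has a replicate check and no test between groups was possible. The labels name a second Msa1-TAP library, whose peaks were not analysed here.

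Msa1 is an RNA-binding protein known as an inhibitor of sexual differentiation in fission yeast, and the study used Msa1-TAP to recognise RNAs that are recovered with RNA-binding proteins in general. In UV cross-linking and immunoprecipitation with sequencing (CLIP-Seq), light joins protein to the RNA it touches, the tagged protein is pulled out on IgG beads, and the attached RNA is sequenced. The same procedure on untagged cells measures RNA that sticks to beads or protein without the tag. Set against that background, the Msa1-TAP library shows what RNA came down with the protein.

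The sequences below show where the main peaks lay, in the strand of the annotated gene and read 5′ to 3′ from the RefSeq assembly ASM294v3. The first set comes from the peak at meiRNA, a meiotic non-coding transcript of the sme2 gene that gathers the meiotic regulators Mei2 and Mmi1. It shows the 2 primers with which the study amplified meiRNA, both inside the Msa1 peak, and 4 stretches of 30 bases rich in the hexamers that Mmi1 binds, which are in capitals. The hexamer searched was TTAAAC, also in the form with C at its second base, TCAAAC, and in the form with G there, written TGAAAC.
Forward primer, chrII:339610-339628, minus strand: ccccaagttggtttatgtg
Reverse primer, chrII:339469-339488, plus strand: aacaatgcagccaaaaagtg
Inside the annotated long isoform, chrII:339422-339451: caatgtTTAAACtttgcgaatgacTGAAAC
Inside the annotated long isoform, chrII:339356-339385: TGAAACaatattaaaacgtattccTGAAAC
Past the annotated end, chrII:339312-339341: taaattttgttaatgaaTTAAACgTGAAAC
Past the annotated end, chrII:339192-339221: ttgaaaacgtgcTGAAACcattcgTTAAAC

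The second set is the middle of 4 deep nuclear peaks, so that the recovered RNAs can be found again.
28S rRNA, chrIII:2445055-2445084, plus strand: cgcttaagcgtactacccatacctcaccgt
Spacer before 5.8S rRNA, chrIII:2443178-2443207, plus strand: gaagcaaaattaaattataaaccttgaaat
Sum3 mRNA, 3′ UTR, chrIII:974499-974528, minus strand: ggacggatgctcattgggtgtgctttttaa
snR30, chrI:3394886-3394915, plus strand: gaagttacattgttcagattctttcgagaa

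The third set is the start codon, in capitals, of 5 mRNAs whose peak was centred in the 5′ untranslated region (UTR) and ran into the coding sequence.
uba3, chrI:461921-461950, plus strand: attatttttttgtaggagATGccctcctca
atg13, chrI:4843433-4843462, minus strand: aatggaaaccacattgatATGccgagactt
mpo1, chrI:3504243-3504272, plus strand: ttaaattaaaacaaagaaATGacttatgta
SPAC1805.10, chrI:2791225-2791254, plus strand: tataaattttgttgcagaATGgtgctagtg
ufd1, chrII:4282136-4282165, plus strand: ttcgcaaaaaaagcaaatATGgtatggttt

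Tags are reads of the aligned pairs, each counted as 0.5. The library totals recovered from the list were 359942 tags with Msa1-TAP and 252537 tags without the tag. Ratios are therefore given after scaling for the 1.43-fold larger Msa1-TAP library, each with an exact 95% interval that covers counting error only. The peaks held 9634 Msa1-TAP tags, or 2.68% of the library, against 983.5 untagged tags, or 0.389%. A peak had a median of 23.5 Msa1-TAP tags (11 to 2704.5) and 3 untagged tags (0.5 to 118.5). The list takes ratios of 4 or higher, so a higher Msa1-TAP value is how a peak was chosen and is not a finding. The peaks nearest that threshold were on pph3, at 4.01-fold, and SPNCRNA.4826, at 4.02-fold, and the median was 5.37-fold. In 45 of 140 peaks (32.1%) the whole interval lay above 2, and in 4 of 140 (2.86%) it lay above 4. The 136 peaks that overlapped a nuclear gene were assigned to 133 of 12606 nuclear genes (1.06%). The interval lay above 2 in all 15 peaks with at least 10 untagged tags, 19 of the 61 with 3 to 9.5, 6 of the 54 with 1 to 2.5 and 5 of the 10 with 0.5.

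**Figure D1:**
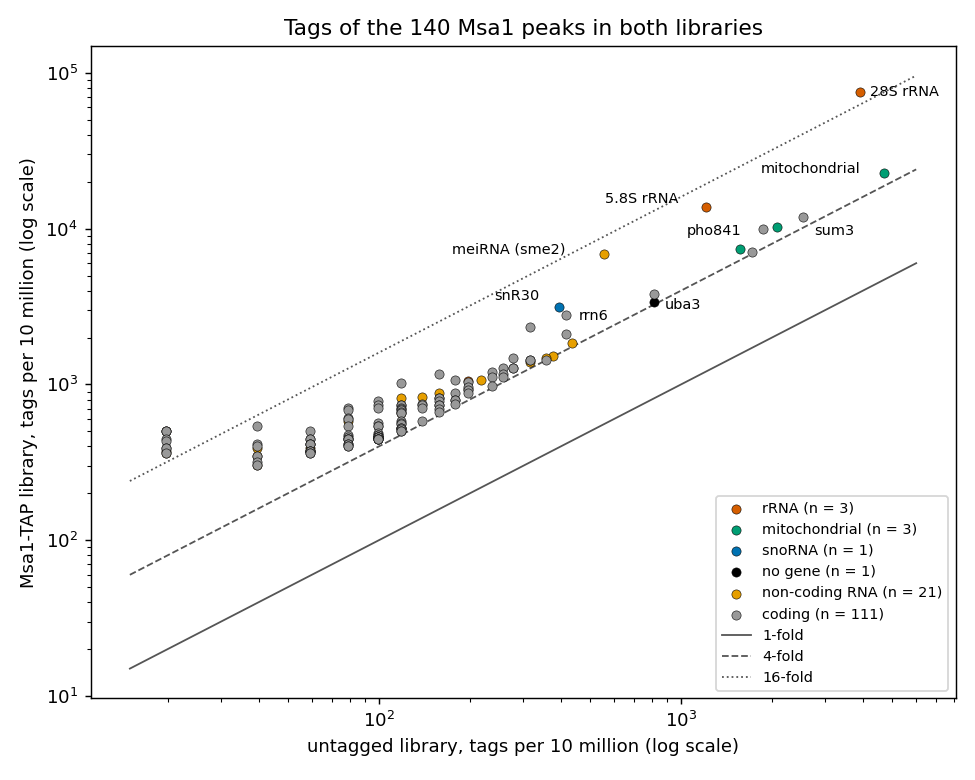
Tags per 10,000,000 in the Msa1-TAP library (vertical, log scale) and in the untagged library (horizontal, log scale) for each of the 140 peaks, coloured by the class of the gene, with lines for equal recovery, 4-fold and 16-fold. The 28S rRNA, 5.8S rRNA and meiRNA peaks lay well above the 4-fold line at high depth, while the mitochondrial peaks, sum3 and pho841 lay near it.

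Peaks were assigned to 3 of 47 annotated rRNA genes (6.38%), and those at 28S and 5.8S rRNA were the deepest of the nuclear genome. The 28S rRNA peak, chrIII:2444969-2445169, had 2704.5 Msa1-TAP tags against 98.5 untagged tags, a ratio of 19.3 (15.8 to 23.8). It began 1257 nt into the annotated 28S gene of 3485 nt. The second peak, chrIII:2443092-2443292, had 495.5 Msa1-TAP tags against 30.5 untagged tags, or 11.4-fold (7.91 to 17.0). Only 45 nt of it lay in the 5.8S rRNA gene, and the other 155 nt lay in the transcribed spacer before it, which is cut away as the precursor matures. The third lay inside 18S rRNA, with 38 tags against 5 and a ratio of 5.34 (2.10 to 17.4). The intervals of the 28S and 18S peaks overlapped slightly, although their tags differed widely at the same width of 200 nt. Together the 3 rRNA peaks held 0.900% of all Msa1-TAP tags (Wilson interval 0.869 to 0.931) and 0.0531% of untagged tags (0.0448 to 0.0628), and 33.6% of the Msa1-TAP tags in peaks. The rRNA genes are repeated in the genome, so which copy a tag came from is not known.

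Other RNAs of the rRNA pathway were in the list. snR30, the snoRNA U17 needed to process the 18S precursor, had 113 Msa1-TAP tags against 10 untagged tags, or 7.93-fold (4.16 to 17.0), and was the only snoRNA of 66 to which a peak was assigned. A second snoRNA, snR92, lay on the other strand under the peak assigned to SPNCRNA.1487, which had 19 tags against 3 (4.43-fold, 1.31 to 23.4). The snR30 peak covered the first 126 nt of the annotated snoRNA and reached upstream of it. Also listed were mRNAs of the RNA polymerase I machinery, which transcribes rRNA. rrn6, which encodes a subunit of a polymerase I transcription factor, had 101 tags against 10.5 (6.75-fold, 3.57 to 14.2) in a peak of 308 nt across its start codon. rpa2, encoding the second-largest polymerase subunit, had 46 tags against 7 (4.61-fold, 2.07 to 12.1) across its stop codon. eta2, encoding a termination factor, had a peak in its coding sequence with 46 tags against 6.5 and another in its 3′ UTR with 17.5 against 2.5, both with non-coding RNAs on the other strand. The 4 peaks summed to 210.5 tags against 26.5, a ratio of 5.57 (3.71 to 8.69). This group was put together after the values were seen, from peaks that had all passed the list's threshold of 4.

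A further 3 peaks lay on the mitochondrial genome. The peak chrMT:16640-17041 had 815.5 Msa1-TAP tags against 118.5 untagged tags, or 4.83-fold (3.98 to 5.91). The peak chrMT:2975-3175 had 371 against 52.5, or 4.96-fold (3.71 to 6.75). The peak chrMT:7246-7446 had 267.5 against 39.5, or 4.75-fold (3.39 to 6.82). The ratios of the 3 peaks were alike within their intervals, and their summed ratio was 4.85 (4.19 to 5.63), against 17.0 (14.3 to 20.3) for rRNA. Per length they were deep in both libraries, at 182 Msa1-TAP tags and 26.3 untagged tags per 100 nt, against 15.1 and 2.02 over the peaks on coding genes. They held 0.404% of all Msa1-TAP tags (Wilson interval 0.384 to 0.425) and 0.0834% of untagged tags (0.0727 to 0.0952). The peaks stood 4071 and 9194 nt apart. The mitochondrial sequence at hand was of another version than the build of the list, so genes under these peaks are not named here.

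At the sme2 locus a peak of 1663 nt, the widest of the list, covered chrII:338132-339795 with 249 Msa1-TAP tags against 14 untagged tags, or 12.5-fold (7.30 to 23.2). In the annotation the long isoform of meiRNA runs on the minus strand from 340907 to 339346, and the short isoform occupies its first 509 nt. The Msa1 peak covered the last 450 nt of the long isoform and reached 1213 nt past its annotated end, of which 148 nt lay in the next gene, aga1. It left out the short isoform, whose end lay 603 nt away. SPNCRNA.4673 and SPNCRNA.4674 also lay under the peak, on the strand opposite meiRNA, and the list carries no strand. The product of 160 nt of the study's meiRNA primers fell wholly inside the peak. With Msa1-TAP, however, the paper reported no enrichment of meiRNA, either by RT-PCR after CLIP or in the sequencing. The peak list used here holds this peak all the same. The Mei2-TAP peak at this locus, called against the same untagged library, was wider and had 5277.5 tags against 79.5 (86.4-fold, 69.2 to 109). Mmi1 hexamers occurred 22 times on the meiRNA strand of the Msa1 peak and 8 times on the other strand, and 14 of the 22 lay between the annotated end of meiRNA and aga1, with 6 in the long isoform and 2 in or at the edge of aga1. No other nuclear peak of the list held more than 3 on 1 strand. The whole annotated long isoform held 7 hexamers, fewer than the paper cites for the long meiotic form of meiRNA. The annotated end need therefore not be the end of the meiotic transcript.

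**Figure D2:**
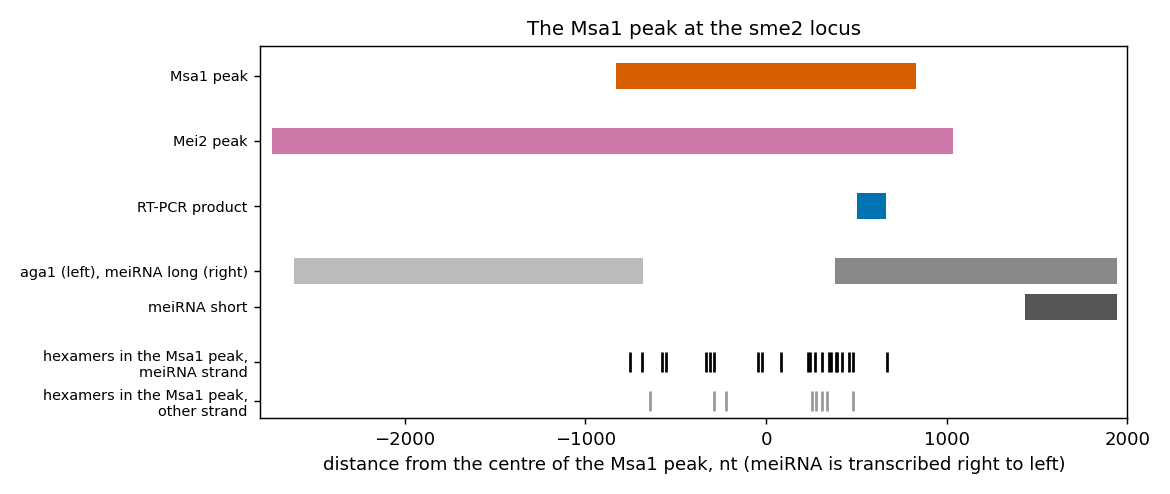
Map of the sme2 locus, with the distance in nt from the centre of the Msa1 peak on the horizontal axis. Bars are the Msa1 peak, the Mei2 peak, the RT-PCR product, the meiRNA isoforms and aga1. SPNCRNA.4673 and SPNCRNA.4674, on the other strand, are not drawn. Ticks are the 22 Mmi1 hexamers on the meiRNA strand and the 8 on the other strand within the Msa1 peak. Most ticks lie left of the annotated end of meiRNA.

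The hexamers were not frequent in the rest of the list. At least 1 of the Mmi1 hexamers stood on either strand in 29 of the 92 nuclear peaks of 200 nt (31.5%). On coding genes the share was 25 of 77 peaks (32.5%), against 39.7% of all windows of 200 nt taken every 50 nt along coding genes. It was 5 of 14 peaks centred in 5′ UTRs, against 44.6% of windows centred there. Base composition of the peaks on coding genes was close to that of such windows, with a median A+T of 63.0% in peaks and 62.5% in windows. The median was 68.8% against 68.0% in 5′ UTRs, 61.5% against 61.0% in coding sequences and 67.5% against 67.0% in 3′ UTRs.

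Besides meiRNA, 20 peaks were assigned to non-coding RNAs. Together with meiRNA these 21 peaks, 2 of them on nc-tgp1, fell on 20 of 7171 annotated non-coding RNA genes (0.279%), against 109 of 5113 coding genes (2.13%). nc-tgp1, whose transcription represses the phosphate-responsive gene tgp1, had 29.5 tags against 3 (6.90-fold, 2.14 to 35.4) and 14 against 1 in peaks 587 nt apart. SPNCRNA.4681 lay on the other strand under both. SPNCRNA.867 had the widest of the remaining peaks, 690 nt, with 66.5 tags against 11 (4.25-fold, 2.22 to 8.90), and it overlapped 3 other genes. SPNCRNA.2443 had 53.5 tags against 9 (4.17-fold, 2.04 to 9.61) and began 300 nt from the sod1 peak. SPNCRNA.7236, annotated as a centromere-proximal RNA, had 30 tags against 3.5 (6.00-fold, 2.004 to 26.4) with no other gene under the peak. Intervals above 2 were also found for SPNCRNA.4826, SPNCRNA.1367 and SPNCRNA.5603, at 4.02, 4.43 and 4.91-fold. SPNCRNA.322 lay on the other strand at SPNCRNA.4826, and fhn1 on the same strand at SPNCRNA.1367. SPNCRNA.1611 had 0.5 untagged tags and is given with such peaks below, and the intervals of the other 12 peaks on non-coding RNAs reached below 2. One deep peak lay over no annotated gene. It covered chrIII:250418-251143, 725 nt, with 121.5 tags against 20.5 (4.16-fold, 2.59 to 7.003), and stood 21 nt from SPNCRNA.6761.

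Coding genes held 111 of the 140 peaks. sum3, which encodes an RNA helicase of translation initiation, had 426 Msa1-TAP tags against 64 untagged tags in its 3′ UTR, or 4.67-fold (3.58 to 6.17). pho841, encoding an inorganic phosphate transporter, had 356 against 47, or 5.32-fold (3.91 to 7.37), across its stop codon, with 83 nt of the peak in the 3′ UTR. SPBC725.03, annotated as a pyridoxamine phosphate oxidase, had 256 against 43.5, or 4.13-fold (2.99 to 5.83), in its 3′ UTR. These peaks carried many tags in the untagged library too, and their ratios were at or below the median of the list. hsp3102, encoding a glyoxalase, had 84 against 8 (7.36-fold, 3.57 to 17.6), and rli1, encoding an iron-sulfur ATPase of ribosome recycling, had 76 against 10.5 (5.08-fold, 2.65 to 10.8). No other annotated gene lay under the peaks on sum3, pho841 and SPBC725.03, while SPNCRNA.613 lay on the other strand at hsp3102. In the whole list, genes of both strands were covered by 75 peaks and genes of a single strand by 61. The list carries no strand, so for those 75 it is not known which RNA was recovered.

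**Figure D3:**
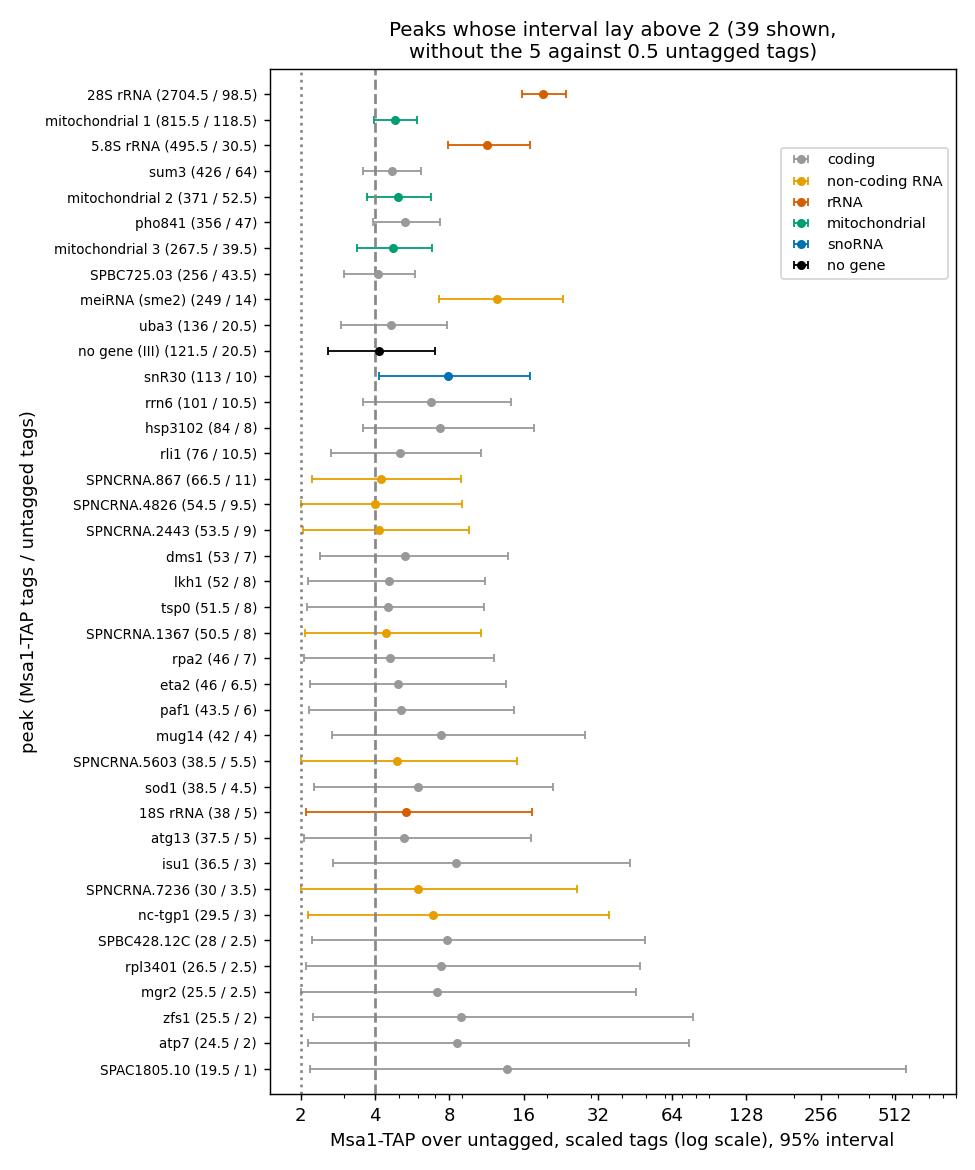
Ratio of Msa1-TAP to untagged tags after scaling (log scale) with exact 95% intervals for 39 peaks whose interval lay above 2, without the 5 that had 0.5 untagged tags and 1 that is not shown. Peaks run from the most Msa1-TAP tags at the top, with Msa1-TAP and untagged tags in brackets, and the lines mark 2-fold and 4-fold. Only 28S rRNA, 5.8S rRNA, meiRNA and snR30 had an interval wholly above 4.

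Peaks in 5′ UTRs were the position class that departed most from the annotation. A peak was placed by the midpoint of the stretch inside its gene, and for 22 of the 111 coding peaks (19.8%) that midpoint lay in a 5′ UTR, which makes up 7.41% of the annotated length of coding genes. The coding sequence held 68 (61.3%, against 68.9% of length), the 3′ UTR 19 (17.1%, against 19.5%) and introns 2 (1.80%, against 4.17%). These shares are descriptions of 1 list, and mRNA levels were not measured. The genes of the 22 peaks had long 5′ UTRs, with a median of 296.5 nt (67 to 2778), against 79 nt over all coding genes and 110 nt over the genes with a peak. Placement by midpoint favours genes with long 5′ UTRs, so this difference is at least partly set by the rule. In 13 of the 22, every gene under the peak was on 1 strand. Likewise 13 reached upstream of the annotated gene, and on sod1, mgr2 and npr3 most of the peak lay there, with 36, 15 and 57 nt inside the gene. The ratios had a median of 5.29 (4.38 to 13.7) in 5′ UTRs, 5.67 (4.01 to 25.2) in coding sequences and 4.67 (4.13 to 22.4) in 3′ UTRs.

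uba3, which encodes a subunit of the enzyme that activates the ubiquitin-like protein NEDD8, had the deepest 5′ UTR peak, with 136 Msa1-TAP tags against 20.5 untagged tags, or 4.65-fold (2.91 to 7.81). The peak covered all 223 nt of the 5′ UTR and the start codon, and SPNCRNA.651 and SPNCRNA.2188 also lay under it. Next came dms1, with 53 tags against 7 (5.31-fold, 2.41 to 13.9), and lkh1, encoding a LAMMER-family protein kinase, with 52 against 8 (4.56-fold, 2.15 to 11.1) inside a 5′ UTR of 1345 nt. sod1, encoding superoxide dismutase, had 38.5 against 4.5 (6.00-fold, 2.27 to 21.1), but only 36 nt of its 5′ UTR were covered, the rest lying upstream of the annotated gene. atg13, encoding a regulatory subunit of the autophagy kinase, had 37.5 against 5 (5.26-fold, 2.07 to 17.1), with its whole 5′ UTR of 159 nt covered. isu1, encoding the scaffold on which iron-sulfur clusters are built, had 36.5 against 3, or 8.53-fold (2.70 to 43.3). No other gene lay under the peaks on dms1, lkh1, sod1, atg13 and isu1.

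Of the 5′ UTR peaks with fewer tags, 3 had an interval above 2. mgr2 had 25.5 tags against 2.5 (7.16-fold, 2.01 to 45.6), with 15 nt of its 5′ UTR covered and the rest of the peak upstream. zfs1, encoding a zinc finger protein, had 25.5 against 2 (8.95-fold, 2.24 to 77.9) in a 5′ UTR annotated at 2778 nt, with SPNCRNA.6151 on the other strand. SPAC1805.10, uncharacterized, had 19.5 against 1 (13.7-fold, 2.18 to 568), with fmt1 on the other strand. The intervals of 12 peaks reached below 2. Among them git1, encoding a protein of glucose sensing, had 34.5 against 5, and leu2, encoding a leucine synthesis enzyme with an iron-sulfur cluster, had 29.5 against 4. pma1, encoding the plasma membrane proton pump, had 25.5 against 3.5 in its long 5′ UTR and 26.5 against 3.5 in a second peak at its stop codon, 3259 nt away. duc1 had 25 against 4, mpo1, encoding a fatty acid oxygenase, 24 against 3, and SPBC16A3.02C 17 against 2.5. trz1, encoding a tRNA-processing endonuclease, had 16.5 against 2.5, ufd1, encoding a subunit of a ubiquitin ligase complex, 16 against 2, and npr3, encoding a subunit of a complex that restrains TORC1, 16 against 2.5. wsc1, encoding a cell wall stress sensor, had 15 against 1.5, ubc8, encoding a ubiquitin-conjugating enzyme, 13.5 against 1.5, and aim29 11 against 1. Genes on the other strand lay under the peaks on leu2, duc1, mpo1, SPBC16A3.02C, wsc1 and aim29, and mtr3 on the same strand at ubc8. In 5 of the 22 genes the peak ran across the start codon, which are those whose sequence is given above, and 8 peaks lay wholly inside the 5′ UTR.

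**Figure D4:**
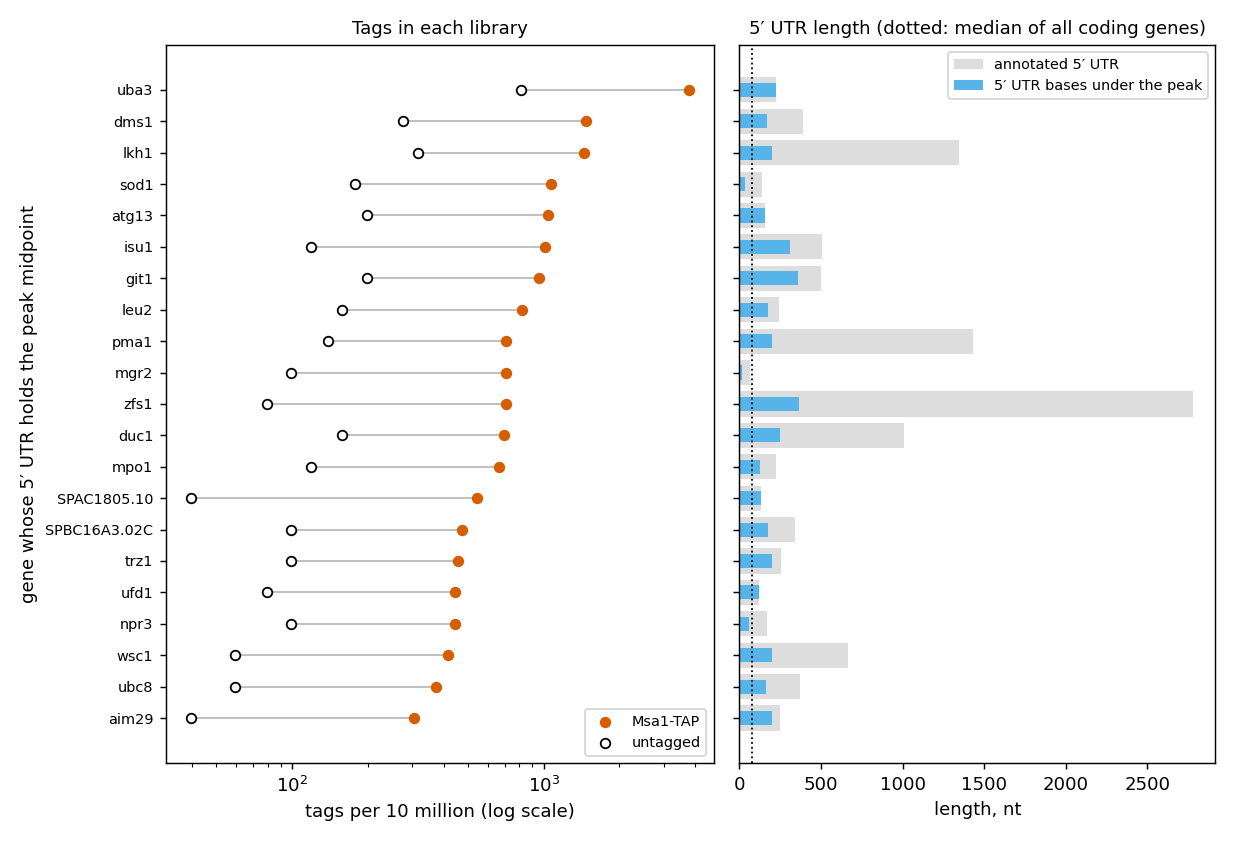
Left, tags per 10,000,000 (log scale) in the Msa1-TAP library (filled) and the untagged library (open) for 21 of the 22 peaks centred in a 5′ UTR, ordered by Msa1-TAP tags. Right, the annotated length of each 5′ UTR (grey) and the part under the peak (blue), with the median of 79 nt over all coding genes dotted. Most of these 5′ UTRs were longer than that median, which placement by midpoint favours.

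Around the start and stop codons the list was as follows. A start codon lay under 18 of the 111 coding peaks and a stop codon under 12. The 19 peaks centred in 3′ UTRs lay in genes with a median 3′ UTR of 706 nt, against 243 nt over all coding genes. Here too, placement by midpoint favours genes with a long UTR. Of these peaks, 7 had genes on 1 strand only. After sum3, SPBC725.03 and rpa2, the next was bqt3, encoding a protein of the nuclear membrane in the meiotic chromosome bouquet, with 42 tags against 6.5 (4.54-fold, 1.97 to 12.5). SPBC428.12C, annotated as a peptidyl-prolyl isomerase, had 28 against 2.5 (7.84-fold, 2.23 to 49.9), with SPNCRNA.4732 on the other strand. An intron held the midpoint of the peak on tsp0, encoding a TspO-like protein, with 51.5 against 8 (4.51-fold, 2.13 to 11), and php2 overlapped it on the other strand. The other intronic peak was on rps502, with 27 against 4.5 and no other gene under it.

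The 109 coding genes with a peak spread over many functions, and 50 of them were in none of the 16 lists made from words of the annotation. Set against 2.13% of all coding genes, the share with a peak was 6 of 135 for ribosome biogenesis and RNA polymerase I (4.44%), 6 of 146 for cytosolic ribosomal proteins (4.11%) and 2 of 49 for tRNA charging and modification (4.08%). It was 6 of 202 for membrane transporters, 3 of 101 for heat shock and chaperones, 7 of 247 for ubiquitin, NEDD8 and proteolysis, 4 of 146 for vesicle traffic, 4 of 149 for RNA-binding, splicing and decay, 10 of 435 for kinases, phosphatases and signalling and 2 of 88 for cell wall and glycosylation, all between 2.27% and 2.97%. The share was lower for meiosis, mating and sporulation (4 of 195), transcription and chromatin (6 of 301), translation factors (1 of 57), amino acid and nucleotide metabolism (2 of 125), mitochondrial proteins encoded in the nucleus (2 of 142) and DNA replication, repair and cell cycle (1 of 159). A gene can be in several lists, and with so few members in each, no list is called apart from the rest.

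**Figure D5:**
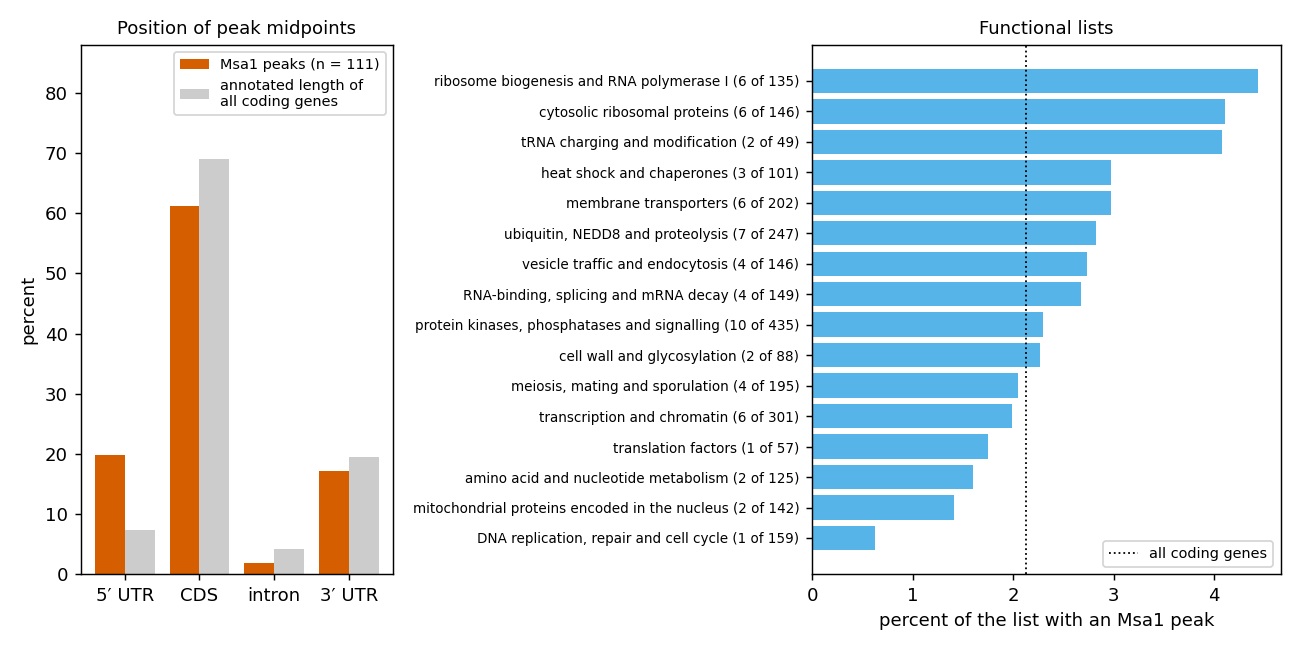
Left, percent of the 111 Msa1 peaks on coding genes with their midpoint in each part of the gene, beside the percent of the annotated length of all coding genes in that part. Right, percent of each functional list with an Msa1 peak, with the 2.13% of all coding genes dotted; the lists at the top had 4.44%, 4.11% and 4.08%.

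Within the lists the leading members were these. rpl3401, encoding ribosomal protein L34, had 26.5 tags against 2.5 (7.44-fold, 2.09 to 47.3) and was the only ribosomal protein mRNA with an interval above 2, while rpl301 had 33 against 5, rps502 27 against 4.5 and rpl2301 25.5 against 3. In ribosome biogenesis rrp45, encoding an exosome subunit, had 26.5 against 3 after the polymerase I genes. paf1, encoding a subunit of the complex that travels with RNA polymerase II, had 43.5 against 6 (5.08-fold, 2.16 to 14.6), with SPNCRNA.2764 on the other strand, while pst3, encoding a histone deacetylase co-repressor, had 24.5 against 3 and brf1 16.5 against 2.5. Among meiotic genes mug14, encoding an adducin, had 42 against 4 (7.38-fold, 2.67 to 28.3), with non-coding RNAs on both strands. dli1, encoding a meiotic dynein light chain, had 40 against 6.5 (4.32-fold, 1.87 to 11.9), ste24, annotated as a prenyl protease, 21.5 against 2 and spo20, encoding a phospholipid transfer protein, 15 against 2. atp7, encoding a subunit of the mitochondrial ATP synthase, had 24.5 against 2 (8.60-fold, 2.14 to 74.95), with prl25 on the other strand. mrpl9, encoding a mitochondrial ribosomal protein, had 17 against 2.5.

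The transporters below pho841 were nic1, for nickel and cobalt, with 28 tags against 4, gms2, for UDP-galactose, with 26.5 against 3, and vtc4, a polyphosphate gene of the phosphate response, with 26.5 against 4. In vesicle traffic sif3 had 29.5 against 4, toc1, encoding a TOR complex protein, 15 against 1.5 and fzo1, encoding a mitochondrial fusion GTPase, 13.5 against 1.5. The leading chaperone after hsp3102 was ssz1, with 40 against 6 (4.68-fold, 1.97 to 13.5). In RNA metabolism SPCC1827.05C had 17 against 2 and rbm17 13.5 against 1.5. Among the signalling genes pph3, encoding a protein phosphatase, had 51.5 against 9 and duf89 31.5 against 4.5, beside atg13. ste24, ubc14 and ubp14 followed uba3 in the proteolysis list, the last with 16 against 2. Smaller lists held cdc23, a replication factor, with 20 against 3, shm1, a serine hydroxymethyltransferase, with 20.5 against 3, ppm1 with 16 against 2.5, gas5, a glucan-modifying enzyme, with 12.5 against 1, pom152, a nucleoporin, with 11.5 against 1, and SPCC576.06C, a tyrosine tRNA ligase, with 13 against 1.5. The lists were matched by words of the annotation, which leave out some members such as the kinase gene lkh1 and the leucine synthesis gene leu2. The same words put ppm1, a methyltransferase named for leucine, in the amino acid list. They also put pom152 in the cell wall and glycosylation list, toc1 and fzo1 in vesicle traffic, and vtc4 among the chaperones. The shares of the lists are therefore shares of word matches. The genes named for the first time in the lists above had intervals that reached below 2, apart from rpl3401, paf1, mug14, atp7 and ubc14.

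Narrower groups of genes of related function, some of them parts of the lists above, were put together after their values were seen and carry no test. Genes of nuclear movement and of the nuclear envelope in meiosis were bqt3, dli1, sif3, sad1, which encodes the nuclear envelope protein that anchors chromosomes and the spindle pole, and kms1, its partner. Their 5 peaks summed to 153 Msa1-TAP tags against 22 untagged tags, or 4.88-fold (3.11 to 8.02). The PP2A-like phosphatases and their regulators were pph3, psy2, ppe1 and ppm1, with 109.5 against 16, or 4.80-fold (2.83 to 8.70). Genes of iron-sulfur assembly or with iron-sulfur proteins were isu1, rli1, SPAC806.02C and leu2, with 173.5 against 22.5, or 5.41-fold (3.48 to 8.81). Genes of TOR signalling and autophagy were atg13, atg38, npr3, toc1 and ppk18, with 110 against 14.5, or 5.32-fold (3.07 to 9.94). Genes of the ubiquitin and NEDD8 pathways were uba3, ubc8, ubc14, ufd1, ubp14, pep3 and dsk2, with 228 against 28, or 5.71-fold (3.85 to 8.79). Not all of them encode conjugating enzymes, since ubp14 is annotated as a ubiquitin hydrolase and dsk2 as a UBA domain protein. The septin genes spn3 and spn6 had 44.5 against 7, or 4.46-fold (1.995 to 11.7), with SPBC16A3.02C and dcr1 on the other strands. The summed ratios of these groups lay near the median of the whole list. Every summed peak had already passed the list's threshold of 4, so summed ratios above 4 were set by that choice. Their intervals leave this choice out and give no support to a group.

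The highest ratios stood on the fewest tags. In all, 10 peaks had 0.5 untagged tags, a single read, so the upper limits of their intervals are very wide and only the lower limits are given. psy2, encoding a regulatory subunit of the phosphatase PP4, SPBC14C8.15, annotated as a lipase, and SPNCRNA.1611 each had 18 Msa1-TAP tags against 0.5, or 25.2-fold with a lower limit of 2.40. ubc14 had 16 against 0.5, or 22.4-fold with a lower limit of 2.10, and pep3, annotated as a ubiquitin ligase, had 15.5 against 0.5, or 21.8-fold with a lower limit of 2.03. The others were ght3, encoding a gluconate transporter, SPCC569.07, SPNCRNA.4210, kms1 and SPNCRNA.1626, with 13 to 14 Msa1-TAP tags and lower limits from 1.66 to 1.81, all below 2. Genes on the other strand lay under all 10 of these peaks except those on SPNCRNA.1611 and SPNCRNA.4210. At ubc14, sfc7 also lay under the peak on the same strand. The median ratio was 6.33 over the 54 peaks with 1 to 2.5 untagged tags, 4.80 over the 61 with 3 to 9.5, and 4.96 over the 15 with at least 10.

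Wider peaks held more tags, and their ratios were similar. Of the 140 peaks, 94 were 200 nt wide, the narrowest width in the list, with a median of 18 Msa1-TAP tags and 2.5 untagged tags. The 46 wider peaks had a median of 34 tags against 4.5, and the median ratio was 5.13 in the wider and 5.49 in the narrow peaks. The deepest peaks per length were nonetheless narrow: 28S rRNA with 1352 Msa1-TAP tags per 100 nt, the 5.8S side with 248 and sum3 with 213, against 15 in the broad meiRNA peak.

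Several Msa1 peaks overlapped peaks of the Mei2-TAP list, which was called against the same untagged library, so both lists share their control and their values are only set side by side. snR30 had 113 tags against 10 with Msa1-TAP (7.93-fold, 4.16 to 17.0) and 118 against 33 with Mei2-TAP (4.65-fold, 3.14 to 7.07) over a wider peak. rpa2 had 46 against 7 with Msa1-TAP (4.61-fold, 2.07 to 12.1) and 31.5 against 10 with Mei2-TAP (4.10-fold, 1.96 to 9.36). The region with no gene on chromosome III had 121.5 against 20.5 (4.16-fold, 2.59 to 7.003) and 32.5 against 8.5 (4.98-fold, 2.29 to 12.1). leu2 had 29.5 against 4 (5.18-fold, 1.82 to 20.2) and 72 against 14.5 (6.46-fold, 3.64 to 12.3). SPACUNK4.17 had 35 against 6 (4.10-fold, 1.70 to 11.9) and 321 against 53.5 (7.81-fold, 5.83 to 10.6). The Mei2-TAP peaks on rpa2, leu2 and SPACUNK4.17 were wider than the Msa1-TAP peaks. In each of these pairs the intervals of the ratios overlapped. The Mei2-TAP library held 194019 tags, against 359942 with Msa1-TAP, so tags of the 2 lists are not on the same scale. The Mei2 list held 0 peaks on the mitochondrial genome, which does not show that recovery there differed, since tags outside called peaks are not in the lists.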

How the data were processed

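Libraries were made with a strand-specific kit and amplified for 12 PCR cycles. The authors aligned reads with STAR to the ASM294v2 build and called wide peaks with HOMER against the untagged library; versions were not given in the sources used here. The deposited signal of each peak is its Msa1-TAP tags scaled to 10,000,000, and a second deposited signal is scaled to the untagged library; the deposited estimated counts of untagged tags come in steps of 0.5. Columns of the authors' fold, p-value, score and clonal reads were not used. A second, byte-identical copy of each list was left out.

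Library totals were recovered as the values for which both signals are whole steps of 0.5 tags in all 140 peaks, a step tested on simulated data. Ratios are Msa1-TAP over untagged tags after scaling, with exact Clopper-Pearson 95% intervals (Python 3.11.15, SciPy 1.17.1); amplified reads are not independent molecules, so intervals cover counting error only. With 1 library in each arm, no p-value was computed.

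Nuclear peaks were assigned to the ASM294v3 gene that they covered most, strand ignored (equal overlaps: coding before other genes, short before long), with the part at the midpoint of the overlap as position. Chromosome names were the same as in the earlier build. Of the features shared with it, 95 had at least 1 gene end at the same base and 3 had neither. UTR ends were reannotated, so UTR lengths and positions given here hold for ASM294v3. Named are peaks with an interval above 2, all mitochondrial and 5′ UTR peaks, the 4 highest ratios against 0.5 untagged tags and up to 4 leading members of each list, except for 1 gene that is not reported here. Members and lists were chosen with earlier results of these data known, and the word patterns of 2 lists (tRNA charging, amino acid metabolism) were corrected after their members were seen.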

Additional observations from a re-analysis of the deposited data

How the results depend on the processing

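The number of peaks with an interval of the ratio above 2 was 45, and it was 50 with the Wilson interval, 51 with tags rounded down, 39 without mitochondrial and rRNA peaks and 40 without the peaks against 0.5 untagged tags, an alternative chosen after seeing the data. The median ratio of 5.37 was 4.34 with 1 tag added to both libraries, 4.83 over peaks with at least 3 untagged tags and 13.1 over peaks with a ratio of at least 8. The last 2 keep only peaks chosen by untagged tags or by the ratio itself, so the change follows from that choice. The 133 genes with a peak were 218 when every overlapping gene was counted, 127 by the gene under the midpoint and 126 with an overlap of at least 50% of the peak. The 22 peaks centred in 5′ UTRs were 23 by the longest overlap, 21 by the midpoint of the whole peak (chosen after seeing the data), 13 over genes of a single strand and 10 with an interval above 2. The 19 peaks centred in 3′ UTRs were 7 over genes of a single strand. Ribosomal protein genes numbered 6, and 7 with every overlapping gene. The mitochondrial share was 0.404% of the tags on both scales, which a common factor could not change. Depth limits the shallow peaks, since 64 of the 140 had under 3 untagged tags. No paired analysis was possible because each list rests on 1 tagged library and the 1 untagged library, and no replicate could be left out.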
